A study of Mus musculus with 12 samples.

Results

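The genes described here encode the protein core of the spliceosome, the machine that removes introns from pre-mRNA. Each small nuclear ribonucleoprotein (snRNP) is built on a U-rich small nuclear RNA carrying a ring of Sm proteins or, in U6, of LSm proteins, and the SF3A and SF3B complexes hold the U2 snRNP at the branch point. The Prpf genes are named after yeast pre-mRNA processing mutants and encode, among others, subunits of the U4/U6.U5 tri-snRNP and the catalytic Prpf19 complex. Dividing T cells and T-cell leukaemias need a constant supply of these proteins, because snRNPs are made anew as cells grow.

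Members were chosen by symbol and level alone: rows whose symbol starts with Snrp, with Lsm and a digit, with Sf3a, with Sf3b, or with Prpf and a digit, and whose mean reached 1 FPKM in the table. FPKM is a read level scaled by transcript length and by the size of the library. Of 23174 rows in each table, 45 bore such a symbol, and 44 reached the threshold in both, out of 10245 rows ex vivo and 10741 in the tumours. The row left out was Snrpn, listed jointly with Snurf, which was at 0.0787 FPKM in the vehicle library of replicate 1 and listed at 0 in the other 11. Just inside the threshold lay Prpf40b, with means of 1.25 FPKM in vehicle and 1.36 FPKM in AMD3100 libraries. The genes were proposed as a group with the results of both comparisons known, so the counts of changed members describe them and are no independent evidence of a direction.

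The 12 samples were T-cell acute lymphoblastic leukaemia (T-ALL) of C57BL/6 mice, driven in every group, controls included, by the activated Notch1-deltaE allele. One set of 6 libraries came from leukaemia cells treated ex vivo, 3 with vehicle and 3 with AMD3100, a small-molecule antagonist of the chemokine receptor Cxcr4. The other set of 6 came from primary tumours, 3 of them Cxcr4 wild type (replicates 1, 2 and 4) and 3 Cxcr4 knockout (replicates 5, 7 and 8). A protocol given for all samples puts spleen T-ALL cells on a feeder layer of mitomycin-treated OP9, a stromal line from mouse marrow, and adds interleukin 7 at 5 ng/ml. The sources used here give no age, no dose or duration of AMD3100, and no promoter or Cre for the knockout and the Notch1 allele. The labels do not say whether replicates were separate animals or cultures, so p-values measure only the spread between these samples. In bulk RNA, fewer cells of a type and less RNA per cell cannot be told apart.

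All 8 T-lineage markers tested were present in every library, with summed levels of 2770 to 3750 FPKM in vehicle, 2560 to 3250 FPKM in AMD3100, 1110 to 3920 FPKM in wild-type and 1660 to 3540 FPKM in knockout libraries. The 8 neutrophil markers were all listed at 0 ex vivo, and their sum was 5.52 to 3080 FPKM in wild-type and 65.6 to 315 FPKM in knockout tumours. B-cell markers summed to 12.2, 11.7 and 2.38 FPKM in wild-type and 12.4, 18.8 and 21.8 FPKM in knockout tumours, without overlap. In the tumours the median log2 difference, knockout minus wild type, was 0.60 for the T-lineage markers (8 of 8 above 0). It was 0.74 for the macrophage (6 of 7 above 0), 0.60 for the red-cell (6 of 6) and 0.78 for the B-cell markers tested (3 of 3). The neutrophil markers went the other way, at -0.51 (4 of 6 below 0), as did the 1 stromal marker tested, at -1.87. None of these markers was called, and the part of these differences in the members' values was not tested. Stromal and OP9 markers summed to 10.9 to 184 FPKM in vehicle and 21.4 to 199 FPKM in AMD3100 libraries. Red-cell RNA was also present: haemoglobin made up 1.29% to 23.0% of total FPKM across wild-type tumours and 2.76% to 20.4% across knockouts. Cxcr4 itself was at 241, 155 and 206 FPKM in wild-type and 23.2, 78.9 and 21.9 FPKM in knockout tumours, so each library sat on the side of its label. The female-specific RNA Xist was at 96.4 to 147 FPKM in wild-type and 0.829 to 2.80 FPKM in knockout tumours, and the Y-linked Eif2s3y at up to 0.0862 FPKM against 24.5 to 38.3 FPKM. Sex and genotype cannot be told apart in the tumours. Depth is known only relatively, from the steps between low FPKM values: taking vehicle 1 as 1, vehicle 2 and 3 were at 0.908 and 0.757, and AMD3100 1, 2 and 3 at 1.06, 1.25 and 1.21.

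Promoters of 5 members are shown first, because these genes include the member with the largest rise, a companion of the same protein ring, and members whose groups did not overlap in one or both comparisons. Each is the 150 bases before the RefSeq start, on the gene's own strand, from the RefSeq table of build GRCm38.p6; the deposited values were made on another build. Snrpf lies at chr10:93589659-93589808 on the minus strand, Snrpd3 at chr10:75517892-75518041, Snrpd2 at chr7:19149688-19149837, Lsm3 at chr6:91515885-91516034 and Prpf19 at chr19:10895081-10895230, all 4 on the plus strand. Capitals mark the letters CCAAT (the CCAAT box) and CCGGAAG (an ETS core), searched on both strands.
Snrpf: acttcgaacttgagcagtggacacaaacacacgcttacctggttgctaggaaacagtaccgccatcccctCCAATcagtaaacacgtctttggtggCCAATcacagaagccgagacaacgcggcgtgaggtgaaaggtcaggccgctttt
Snrpd3: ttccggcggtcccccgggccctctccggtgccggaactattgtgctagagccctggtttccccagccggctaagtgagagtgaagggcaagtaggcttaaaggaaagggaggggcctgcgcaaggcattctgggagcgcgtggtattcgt
Snrpd2: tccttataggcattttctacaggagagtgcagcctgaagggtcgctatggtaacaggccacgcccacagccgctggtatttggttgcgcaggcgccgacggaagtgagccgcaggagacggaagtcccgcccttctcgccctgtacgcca
Lsm3: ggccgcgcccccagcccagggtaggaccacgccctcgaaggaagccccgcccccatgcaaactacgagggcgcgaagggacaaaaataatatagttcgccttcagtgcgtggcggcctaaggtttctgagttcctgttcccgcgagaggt
Prpf19: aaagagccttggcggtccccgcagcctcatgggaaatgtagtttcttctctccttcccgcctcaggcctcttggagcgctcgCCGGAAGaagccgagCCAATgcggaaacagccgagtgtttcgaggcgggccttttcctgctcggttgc

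The window of Snrpf held 2 CCAAT boxes and that of Prpf19 one of each motif, while those of Snrpd2, Snrpd3 and Lsm3 held neither within these bases. Over the full 250 bases searched, 35 of 44 members had a RefSeq entry. CCGGAAG stood in 12 of the 35 (34.3%), in 17.9% of the promoters of genes tested ex vivo and in 7.83% of all listed promoters. CCAAT stood in 15 members (42.9%), against 41.3% of tested genes and 37.5% of all. CACGTG, the E-box that Myc and related factors bind, stood in 4 members (11.4%), against 10.4% and 6.86%. The TATA box letters TATAAA stood in 2 members (5.71%), against 7.0% and 14.3%, and the NRF1 palindrome in 0 of 35, against 2.19% and 0.877%. The motifs do not overlap in letters, and a match is a description of the sequence.

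AMD3100 against vehicle asks what blocking Cxcr4 does to leukaemia cells in culture. In a model that treats each replicate number as a block, 13 of 44 members (29.5%) fell and 1 (2.27%) rose, where 9.92% of all genes tested fell and 9.96% rose (limma, adjusted p under 0.05). The members that fell came from several sub-complexes: the Sm ring (Snrpd1, Snrpd3, Snrpb), the U1 and U2 proteins (Snrpc, Snrpa1), the LSm ring (Lsm4, Lsm3), SF3A (Sf3a3), the tri-snRNP and its partners (Prpf31, Prpf3, Prpf38a, Prpf6) and Prpf19. The one that rose was Snrpf, another Sm ring protein. The member median was a log2 difference of -0.20 (quartiles -0.36 and 0.05), with 31 of 44 below 0, while the median of all genes tested was 0.0022 with 49.7% below 0. Summed over members, the level was 3980, 3950 and 4260 FPKM in vehicle and 3400, 3400 and 3510 FPKM in AMD3100 libraries, so every treated library was below every control. That is 0.858% to 0.887% of all FPKM in vehicle and 0.728% to 0.774% with AMD3100.

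The spread between pairs can be read gene by gene. In 26 members (59.1%) the AMD3100 library was lower in 3 of 3 same-numbered pairs, against 29.4% of all genes tested, and in 7 (15.9%) higher in 3 of 3, against 30.8%. Median member differences in pairs 1, 2 and 3 were -0.13, -0.15 and -0.24 on the log2 scale. The groups did not overlap in 20 members (45.5%) that were lower with AMD3100, where 15.8% of all genes did so, and in 6 (13.6%) that were higher, where 13.1% did. The calls depend on the pairing and on each pair. Without the block, 0 of 44 members passed (limma; 0.127% of all genes), although 21 (47.7%) had an unadjusted p under 0.05, against 21.5% of all genes. The number called was 1 without pair 1, 0 without pair 2 and 8 without pair 3. Over all genes tested it was 9 of 10220, 7 of 10137 and 1207 of 10245.

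**Figure D1:**
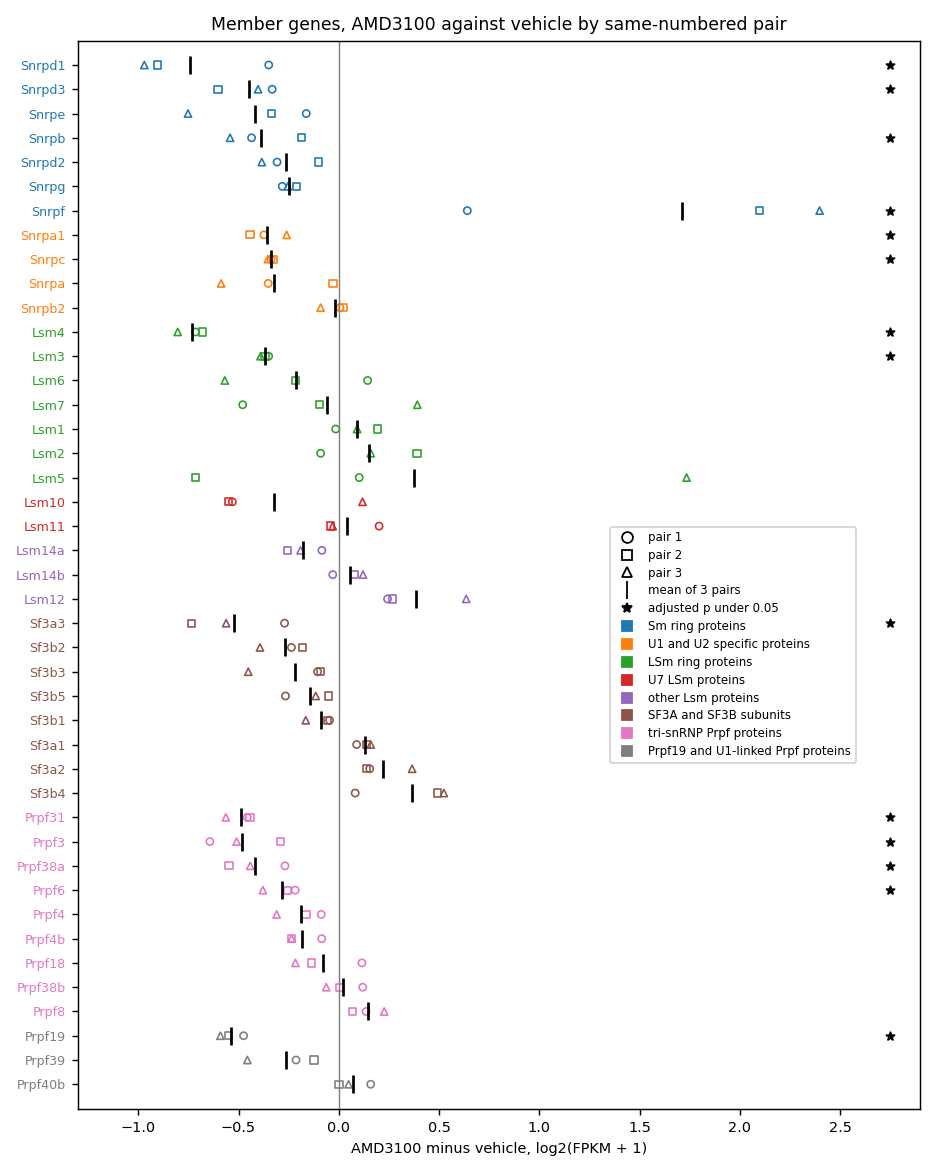
Difference between the AMD3100 and the vehicle library of each same-numbered pair for each member shown, on the log2(FPKM + 1) scale, coloured by the complex each protein belongs to; bars are means of 3 pairs and stars mark an adjusted p under 0.05. Most bars lie left of 0, and Snrpf stands alone on the right with a mean of 1.71.

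Sm proteins B, D1, D2, D3, E, F and G close as a ring of 7 around the small nuclear RNA, and 6 of the 7 genes were below 0 with AMD3100. Snrpd1 (SmD1) stood at 148.9, 214.4 and 194.1 FPKM in vehicle and at 116.6, 114.2 and 98.6 FPKM with AMD3100. Every treated library was below every control, and the mean fell from 186 ± 33.6 to 110 ± 9.78 FPKM (SD, n = 3 each; log2 difference -0.74, SE 0.14, limma adjusted p = 0.0289). Snrpd3 (SmD3), at the second highest level among the members, stood at 358, 378 and 435 FPKM against 284, 248 and 328.5 FPKM (log2 -0.45, SE 0.08, adjusted p = 0.0291). These groups did not overlap either. Snrpb, which encodes SmB and had the highest level of all members, stood at 438, 383 and 440.0 FPKM against 323, 337 and 302 FPKM (log2 -0.39, SE 0.09, adjusted p = 0.0469). Its call was lost with a filter at 0.1 FPKM, with quantile scaling and after correction for transcript length. The call was also lost with no filter, no trend, no block or any 1 pair left out, and it held in 5 of 14 alternative settings. Snrpn encodes SmN, a close relative of SmB, and was listed at or near 0 in every library.

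Snrpf encodes SmF and went the other way. Its level was 38.2, 18.1 and 19.9 FPKM in vehicle and 60.1, 81.0 and 109 FPKM with AMD3100. The lowest treated library was above the highest control, and the mean rose from 25.4 ± 11.1 to 83.4 ± 24.7 FPKM (log2 difference 1.71, SE 0.35, limma adjusted p = 0.0326). Pairs 1, 2 and 3 differed by 0.64, 2.10 and 2.40 on that scale, so pair 1 gave the smallest rise. The adjusted p was 0.0424 without pair 1, 0.112 without pair 2 and 0.0686 without pair 3. In GENCODE, the transcripts of Snrpf match those of Ccdc38, an overlapping gene on the opposite strand, and the pseudogene Gm13092 at 95% identity or more. Ccdc38 was listed at 0 in all 12 libraries, and because it is not stated whether counting used strand or how copies were handled, the level of Snrpf is uncertain.

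The other 3 Sm genes did not pass the test. Snrpe (SmE) was at 158, 144 and 210.1 FPKM in vehicle and 141, 114 and 124 FPKM with AMD3100 (log2 -0.42, adjusted p = 0.075). Snrpd2 (SmD2) was at 188, 177 and 178 FPKM against 151.5, 165 and 136 FPKM (log2 -0.26, adjusted p = 0.0775). For Snrpe and Snrpd2 the groups did not overlap. Snrpg (SmG) was at 44.9, 56.8 and 43.8 FPKM against 36.8, 48.9 and 36.5 FPKM, lower in each pair but with overlapping groups (log2 -0.25, adjusted p = 0.052).

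**Figure D2:**
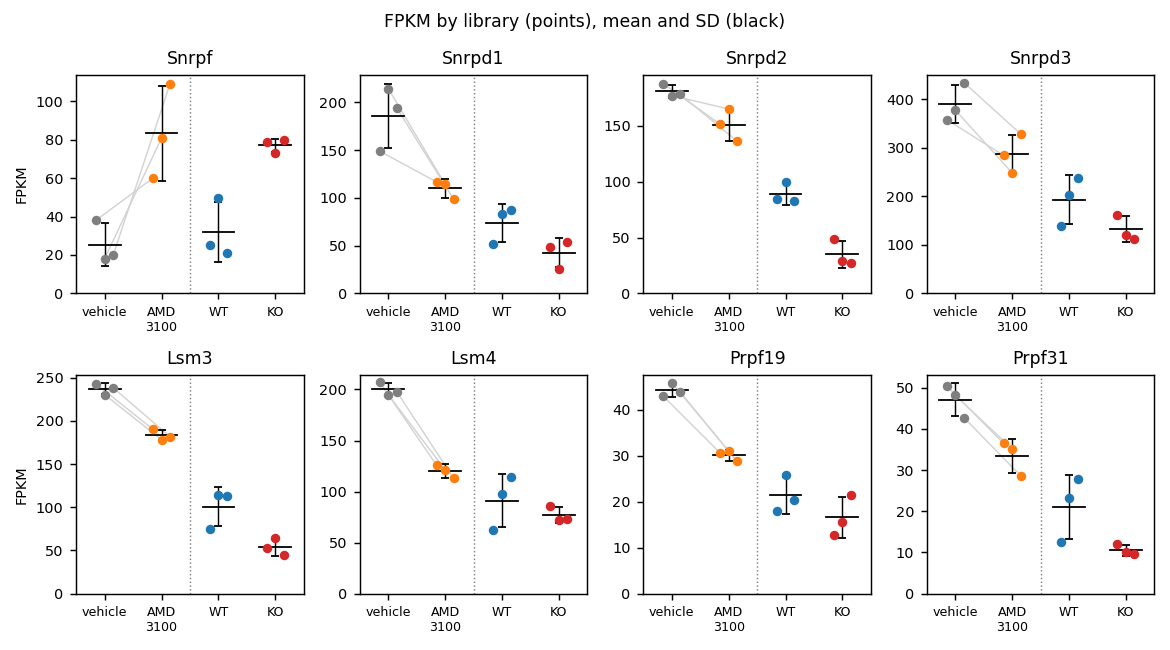
FPKM of 8 members in each library, with the mean and SD of each group in black; grey lines join same-numbered vehicle and AMD3100 libraries, and the dotted line divides the ex vivo from the tumour table, which are compared only within themselves. Snrpf is above its controls with AMD3100 and in knockout tumours, while Snrpd2, Lsm3 and Prpf31 are below in both.

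Of the proteins specific to the U1 and U2 snRNPs, 2 of 4 fell, where 9.92% of all genes tested fell. Snrpc (the C protein of U1), which helps U1 hold the 5′ splice site, was at 89.4, 90.2 and 95.3 FPKM in vehicle and 70.5, 71.7 and 74.3 FPKM with AMD3100 (log2 -0.34, SE 0.06, adjusted p = 0.0262). Snrpa1 (the A-prime protein of U2), which binds a stem loop of U2, was at 113, 113.5 and 101 FPKM against 86.9, 83.2 and 84.5 FPKM (log2 -0.36, SE 0.07, adjusted p = 0.0301). In both genes the treated libraries lay close together, below all controls. Snrpa (the A protein of U1) had a log2 difference of -0.32 (adjusted p = 0.112) without overlap, and Snrpb2, the partner of Snrpa1 in U2, was level at 81.6 ± 11.9 and 80.1 ± 8.19 FPKM (log2 -0.02, adjusted p = 0.832).

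LSm proteins form 2 related rings that share Lsm2 to Lsm7: one with Lsm8 binds U6 RNA in the nucleus, and one with Lsm1 takes part in mRNA decapping in the cytoplasm. Of the 7 measured under these symbols, 2 fell, where 9.92% of all genes tested fell. Lsm4 had the smallest p of all members: it was at 207, 195 and 198 FPKM in vehicle and 126, 121 and 113 FPKM with AMD3100, and its mean fell to 0.6 of control (log2 -0.73, SE 0.06, adjusted p = 0.0191). Lsm3 was at 242.5, 230.3 and 238 FPKM against 190.1, 178 and 181.5 FPKM (log2 -0.37, SE 0.06, adjusted p = 0.0249). Both genes kept the groups far apart relative to the spread within them. Lsm2 was at 108, 91.8 and 120.9 FPKM against 101, 120.7 and 135 FPKM, with overlap (log2 0.15, adjusted p = 0.334). Lsm6 (log2 -0.21) and Lsm1 (log2 0.09) did not pass, and Lsm5 and Lsm7 were at 3.16 FPKM or less in every ex vivo library, too low to read a direction. The ring partner Lsm8 is listed under its older symbol Naa38 and so is no member; it was at 83.9 ± 4.96 and 76.9 ± 4.60 FPKM (log2 -0.12, adjusted p = 0.328).

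The other Lsm genes serve other roles, and none passed the test ex vivo. Lsm10 and Lsm11 replace D1 and D2 in the U7 ring, which cuts histone pre-mRNA; their log2 differences were -0.32 (adjusted p = 0.188) and 0.04 (adjusted p = 0.819), the latter -0.16 after correction for transcript length. Lsm12 was at 38.6, 34.4 and 32.3 FPKM in vehicle and 45.9, 41.7 and 50.7 FPKM with AMD3100, higher without overlap (log2 0.38, adjusted p = 0.057). Lsm14a and Lsm14b, which bind mRNA in cytoplasmic P bodies, had log2 differences of -0.18 (adjusted p = 0.122) and 0.06 (adjusted p = 0.605).

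Among the 8 SF3A and SF3B subunits, which clamp U2 to the branch point, 1 fell. That count lies near the share of all genes tested that fell (9.92%). Sf3a3 (SF3a60) was at 92.6, 107 and 94.96 FPKM in vehicle and 76.6, 64.0 and 64.0 FPKM with AMD3100, without overlap (log2 -0.52, SE 0.10, adjusted p = 0.0316). The other 2 SF3A subunits lay above their controls: Sf3a2 at 79.2, 83.0 and 71.9 against 88.3, 91.6 and 92.96 FPKM (log2 0.22, adjusted p = 0.0977), and Sf3a1 at a log2 difference of 0.13 (adjusted p = 0.185) that became -0.013 after the length correction. Of the SF3A genes only Sf3a3 passed, so the directions of the other 2 are not established. Sf3a2 also matches Plekhj1, an overlapping gene on the opposite strand, at 95% identity or more, so its level is uncertain. Sf3b2 was at 183, 186 and 179 FPKM against 155, 164 and 136 FPKM, lower without overlap (log2 -0.27, adjusted p = 0.0589). Sf3b4 was at 22.9, 19.2 and 20.9 FPKM against 24.3, 27.4 and 30.5 FPKM, higher without overlap (log2 0.37, adjusted p = 0.0788). Sf3b1, the subunit often mutated in human leukaemia and myelodysplasia, was at 110 ± 16.6 and 103 ± 10.7 FPKM (log2 -0.09, adjusted p = 0.347). Sf3b3 and Sf3b5 had log2 differences of -0.22 (adjusted p = 0.161) and -0.14 (adjusted p = 0.206). Sf3b6, listed under the older symbol 0610009D07Rik and so no member, fell from 176 ± 11.9 to 109 ± 2.62 FPKM (log2 -0.69, SE 0.08, adjusted p = 0.0197).

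Of 9 tri-snRNP and related Prpf genes, 4 fell, where 9.92% of all genes tested fell. Prpf31, a U4/U6 protein mutated in inherited retinitis pigmentosa, was at 50.4, 48.1 and 42.7 FPKM in vehicle and 36.5, 35.1 and 28.6 FPKM with AMD3100, without overlap (log2 -0.49, SE 0.07, adjusted p = 0.0199). Prpf3, also of U4/U6, fell from 34.3 ± 4.65 to 24.4 ± 4.01 FPKM (log2 -0.48, adjusted p = 0.0303). Prpf38a, which joins at activation of the spliceosome, fell from 44.4 ± 4.57 to 32.9 ± 2.46 FPKM (log2 -0.42, adjusted p = 0.0306), and Prpf6, which bridges U5 and U4/U6, from 43.5 ± 2.69 to 35.5 ± 2.24 FPKM (log2 -0.28, adjusted p = 0.0482). Prpf8, the large scaffold at the catalytic centre, was at 148, 146 and 150.6 FPKM against 163, 153 and 176 FPKM, higher without overlap (log2 0.14, adjusted p = 0.18, and -0.083 after the length correction). Prpf4, Prpf4b, Prpf18 and Prpf38b had log2 differences between -0.19 and 0.02 and did not pass.

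Prpf19 encodes the ubiquitin ligase that gives its name to the complex active in catalysis. It was at 42.9, 45.9 and 43.8 FPKM in vehicle and 30.6, 31.0 and 28.7 FPKM with AMD3100, without overlap (log2 -0.54, SE 0.07, adjusted p = 0.0197). Lsm4, Prpf19 and Prpf31 were the 3 members that also passed when the prior variance was given no trend with level. Prpf39 and Prpf40b, linked to U1, had log2 differences of -0.26 (adjusted p = 0.129) and 0.07 (adjusted p = 0.784).

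Genes that work beside the members were described from lists chosen by role. Over all genes tested ex vivo, 9.92% fell, 9.96% rose and 49.7% were below 0. In snRNP assembly, the SMN complex loads Sm rings, and the arginine methyltransferase Prmt5 takes part. Here 19 of 19 genes were below 0 (median -0.32) and 5 fell. One of the 5 was Lsmd1, an Sm-like protein known as a subunit of the NatC acetyltransferase and not as an assembly factor (95.8 ± 12.3 to 66.8 ± 7.76 FPKM, log2 -0.51, adjusted p = 0.0197). The other 4 were Gemin6, Clns1a, Ncbp1 and Prmt5 (102 ± 3.28 to 78.3 ± 5.93 FPKM, log2 -0.38, adjusted p = 0.0275). Other U snRNP proteins showed 6 of 22 lower and 0 higher (median -0.14), with Snrnp25 of the minor spliceosome at a log2 difference of -0.68 (adjusted p = 0.024) and Snrnp27 at -0.42 (adjusted p = 0.0252). In the Prpf19 complex and the spliceosomal helicases, 10 of 26 were lower and 0 higher (median -0.23). Prpf19's partner Plrg1 went from 72.1 ± 3.77 to 51.2 ± 2.17 FPKM (log2 -0.49, adjusted p = 0.0197), and the cyclophilin Ppil1 from 77.1 ± 9.62 to 52.6 ± 8.22 FPKM (log2 -0.55, adjusted p = 0.0197).

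Later and regulatory steps were listed in the same way, to be read beside the 9.92% lower and 9.96% higher over all genes. Of 17 exon junction complex and export genes, 7 were lower and 0 higher (median -0.22), with the export adaptor Alyref at a log2 difference of -0.64 (adjusted p = 0.0197) and Rnps1 at -0.46 (adjusted p = 0.0235). Of 20 U2 recruitment factors, 3 were lower and 1 higher: U2af1l4 fell by 0.49 (adjusted p = 0.0202), and the branch-point binder Sf1 rose by 0.31 (adjusted p = 0.031) on the log2 scale. SR proteins and their kinases, which mark exons, had 3 lower and 2 higher of 21, with Tra2b at -0.64 (adjusted p = 0.024) and Srrm2 at 0.58 (adjusted p = 0.0191). The hnRNP list had 7 lower and 3 higher of 26, with Hnrnpk at -0.64 and Hnrnph1 at -0.61 (adjusted p = 0.0197 each). Histone pre-mRNA processing had 2 lower and 0 higher of 9, the histone stem-loop binder Slbp at -0.37 (adjusted p = 0.0279) and Cpsf2 at -0.29 (adjusted p = 0.0432).

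Of 12 genes listed as decapping partners of the cytoplasmic Lsm1 to Lsm7 ring, 2 were higher and 0 lower. Over all genes tested 9.96% rose and 9.92% fell. The list's median was 0.17. Xrn1, the exonuclease that degrades decapped mRNA, rose from 18.5 ± 1.17 to 25.8 ± 1.27 FPKM (log2 0.46, limma adjusted p = 0.031). The helicase Ddx6 rose from 77.4 ± 10.6 to 94.3 ± 7.05 FPKM, with overlapping groups (log2 0.29, limma adjusted p = 0.0448). All 4 nuclear-retained RNAs that could be tested also rose (median 1.18). Malat1 went from 178, 213.5 and 334 FPKM in vehicle to 527, 579.8 and 920.5 FPKM with AMD3100, each pair upward (log2 1.48, adjusted p = 0.0138), and the part of this shift in the members' values was not tested.

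**Figure D3:**
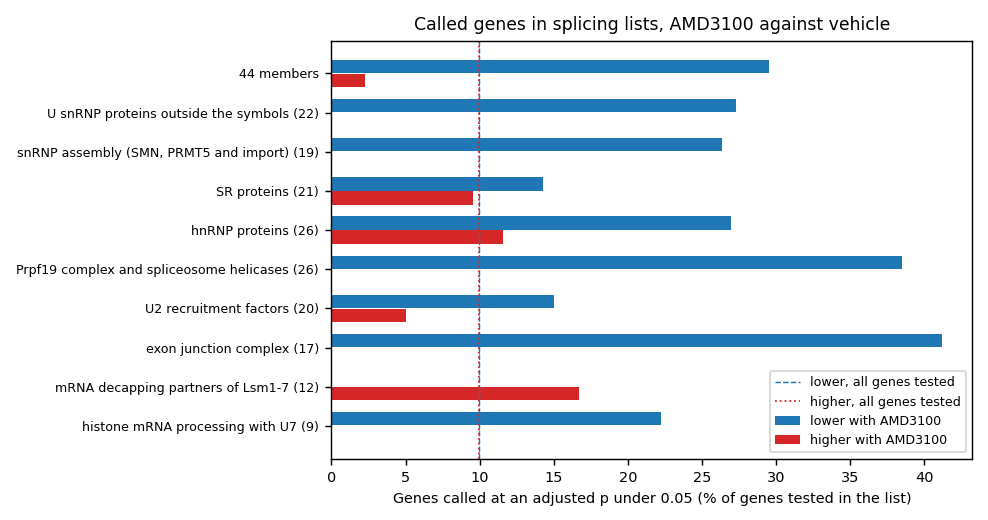
Share of the tested genes in each list that passed an adjusted p under 0.05 with AMD3100, lower in blue and higher in red, with list sizes in brackets; the vertical lines give the shares over all genes tested (9.92% lower, 9.96% higher). Calls in 6 lists besides the members lean to lower by more than 10 percentage points, while the only calls in the decapping list are 2 higher of 12 genes.

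Transcript length moved with the AMD3100 differences. Across 10169 genes with a GENCODE transcript the Spearman correlation of the log2 difference with length was 0.249, and across the 44 members 0.136; genes share libraries and are not independent replicates. Members' transcripts ranged from 416 to 7844 bases with a median of 1747.25, against 2061 for all genes tested. Of the 22 shorter members 8 fell (median -0.29), and of the 22 longer 5 fell (median -0.16). Over all genes tested 9.92% fell, and the shares among all shorter and all longer genes were not counted. After removing a smooth trend on length from each pair, 13 members passed, 12 lower and 1 higher, of which 11 had passed before. Over all 10169 genes in that setting, 797 passed as lower and 810 as higher. Snrpa1, Snrpb and Snrpc no longer passed, Prpf4b and Sf3b1 newly did, and the member median became -0.23. Several members also have near-identical copies elsewhere, mostly pseudogenes, among the called ones 3 for Snrpc and 1 each for Snrpd1 and Prpf19. Among the others there were 3 each for Snrpg and Lsm6, 2 each for Snrpd2, Snrpa and Lsm5, and 1 each for Snrpe, Lsm12 and Sf3b4. Prpf39 and Sf3b2 match an overlapping gene on the opposite strand, as Sf3a2 does. Snrpd3 overlaps Gucd1, and Prpf6 overlaps Zfp512b and Samd10, on the opposite strand. The called Snrpa1 overlaps Gm45213 on the same strand. Further uncalled members overlap a gene on the opposite strand, among them Prpf4b and Sf3b3. With the counting rule not given, the levels of all these genes are uncertain.

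Knockout against wild-type tumours asks how loss of the receptor relates to the same genes in the leukaemia itself. No member passed the test (limma, 0 of 44; 0.0372% of all genes, 4 genes), and 4 members (9.09%) had an unadjusted p under 0.05, against 4.28% of all genes. These were Snrpd2, Lsm3 and Prpf31, lower in the knockout, and Snrpf, higher. Cxcr4 itself did not pass the adjusted test (log2 -2.49, limma adjusted p = 0.986), while the sex-linked Xist and Eif2s3y did. A member that did not pass is therefore not shown to be unchanged. The member median was -0.21 on the log2 scale, with 34 of 44 below 0 (77.3%), against -0.026 and 52.3% for all genes tested. The part of the cell types present in the member median was not tested. Groups did not overlap in 6 members that were lower (13.6%; Snrpd2, Lsm3, Sf3a1, Prpf31, Prpf4b and Prpf38a), where 5.2% of all genes did so. They did not overlap in 2 that were higher (4.55%; Snrpf and Prpf40b), where 4.01% did. Summed member levels overlapped, at 2040, 2570 and 2660 FPKM in wild-type and 2180, 1950 and 1850 FPKM in knockout tumours. As shares of all FPKM they did not overlap, at 0.554%, 0.683% and 0.484% against 0.374%, 0.441% and 0.475%. With haemoglobin left out of the total, the shares were 0.561%, 0.722% and 0.628% against 0.47%, 0.454% and 0.508%.

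Snrpd2 was at 84.2, 99.9 and 82.6 FPKM in wild-type and 48.7, 29.3 and 26.9 FPKM in knockout tumours. All knockout values were below all wild-type values, with means of 88.9 ± 9.58 and 35.0 ± 11.9 FPKM (log2 -1.37, SE 0.31, limma adjusted p = 0.986). Snrpf was at 25.4, 49.9 and 21.0 FPKM against 78.7, 73.2 and 79.7 FPKM, so the knockout tumours lay tightly together above a wider wild-type range (log2 1.34, SE 0.36, limma adjusted p = 0.986). Partners in one ring thus lay on opposite sides of their controls. In the same ring, Snrpd1 was at 51.2, 83.1 and 87.3 FPKM against 48.6, 25.2 and 53.5 FPKM, with overlap (log2 -0.82, adjusted p = 0.986). Snrpd3, Snrpb and Snrpe had log2 differences of -0.53, -0.34 and 0.11. Snrpg was at 24.6, 41.7 and 22.1 FPKM against 27.5 and 24.5 FPKM, and was listed at 0 in knockout 8; its log2 difference of -1.71 became -0.12 without that library. Knockout 8 had 13231 of 23174 genes at 0, the most of any library. Gapdh was listed at 0.532 FPKM or less in every library. Whether the 0 of Snrpg was a failed estimate was not tested.

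Outside the Sm ring, Lsm3 was at 74.996, 113.8 and 113 FPKM in wild-type and 52.6, 64.0 and 44.8 FPKM in knockout tumours (log2 -0.88, SE 0.29, limma adjusted p = 0.986). Prpf31 was at 12.6, 23.1 and 27.7 FPKM against 12.1, 10.1 and 9.57 FPKM, apart by a narrow margin between wild type 1 and knockout 5 (log2 -0.87, limma adjusted p = 0.986). Sf3a1 was at 44.2, 52.3 and 52.6 FPKM against 39.8, 36.2 and 37.5 FPKM (log2 -0.38). All 8 SF3 subunits were below 0 (median -0.27), 7 of them with overlapping groups, but over the alternative settings Sf3b4 reached 0.094 and Sf3a3 0.0095. Lsm2 was at 10.9, 97.3 and 85.8 FPKM against 64.7, 57.3 and 68.7 FPKM, and its log2 difference of 0.46 turned to -0.52 without wild type 1. Prpf40b, at 0.786, 0.398 and 0.730 FPKM against 1.16, 0.865 and 3.19 FPKM, lay near the threshold for inclusion. Medians for U1 and U2 proteins, the LSm ring and the tri-snRNP Prpf genes were -0.42, -0.02 and -0.19.

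**Figure D4:**
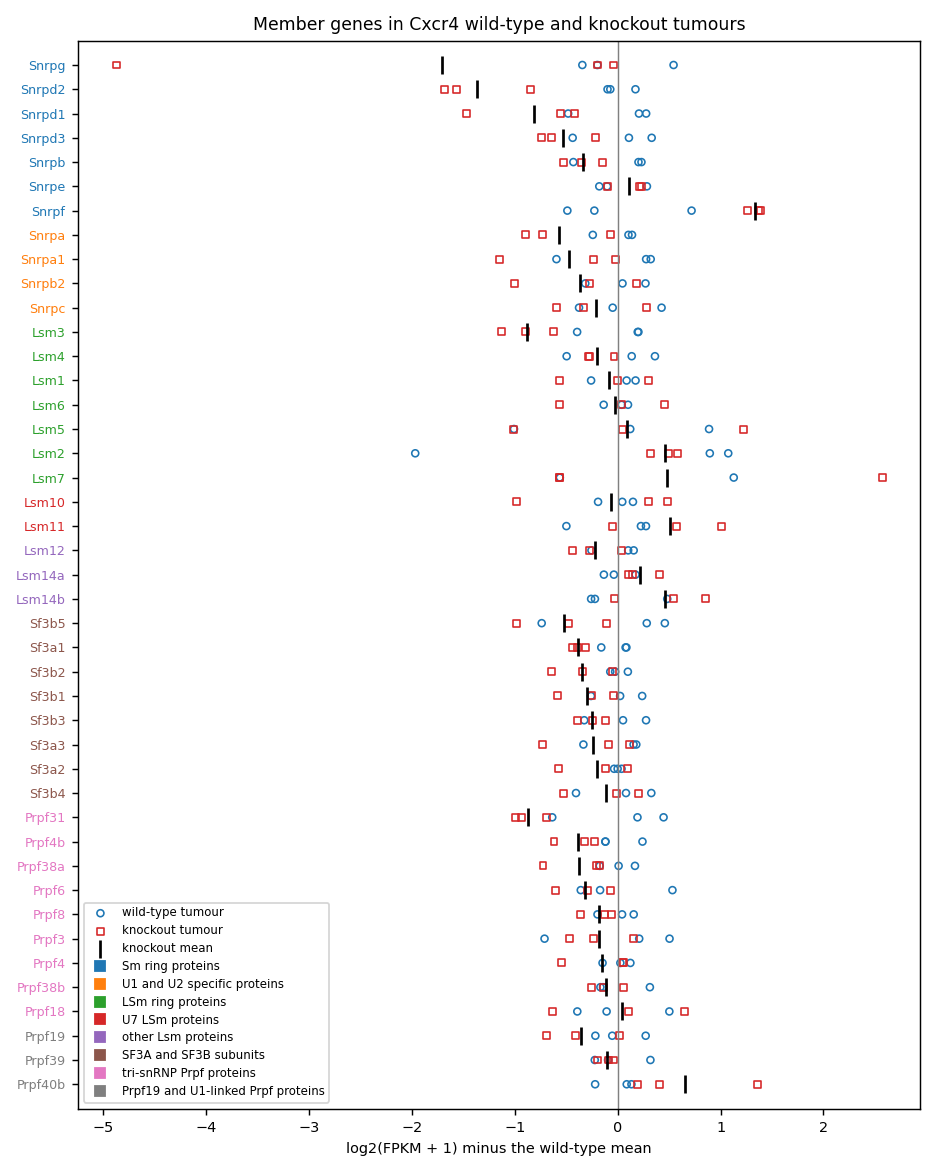
Level of each member shown in the 6 tumours as log2(FPKM + 1) minus the wild-type mean; circles are wild-type tumours, squares knockout tumours and bars knockout means. Snrpd2, Lsm3 and Prpf31 lie to the left and Snrpf to the right without overlap, and the far left square of Snrpg is knockout 8, where the gene is listed at 0.

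In the wider lists, none of the splicing and RNA-processing genes passed in the tumours. Medians were below 0 in all 9 lists, from -0.33 for histone pre-mRNA processing to -0.09 for the U2 recruitment factors, with -0.31 for snRNP assembly and -0.10 for decapping. The smallest unadjusted p in their lists belonged, among others, to Gemin6 of the SMN complex (log2 -1.87) and Snrnp35 of the minor U11 snRNP (log2 -1.78). Ctnnbl1 of the Prpf19 complex had a log2 difference of -0.73, and the smallest in the SR and hnRNP lists were Srsf11 at -0.65 and Hnrpdl at -0.48. All of these had an adjusted p of 0.986. In Rbm25, Pnn, Cnot1 and Cstf2, which had the smallest p of the remaining lists, the differences were -0.42, -0.54, -0.39 and -0.62.

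Set side by side, the comparisons use different samples and no shared controls. Of the 44 members, 27 (61.4%) were below 0 in both and 6 (13.6%) above 0 in both, where 31.5% and 27.9% of 9640 genes tested in both tables were. Groups failed to overlap in both comparisons, lower, for Lsm3, Prpf31, Prpf38a and Snrpd2 (4 of 44, 9.09%; 1.4% of all genes). Snrpf was the 1 member apart and higher in both (2.27%; 0.612% of all genes). Lsm4, with the smallest p ex vivo, had a tumour difference of -0.20 with overlapping groups, at 62.4, 97.3 and 113.9 FPKM against 86.2, 72.5 and 73.0 FPKM.

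**Figure D5:**
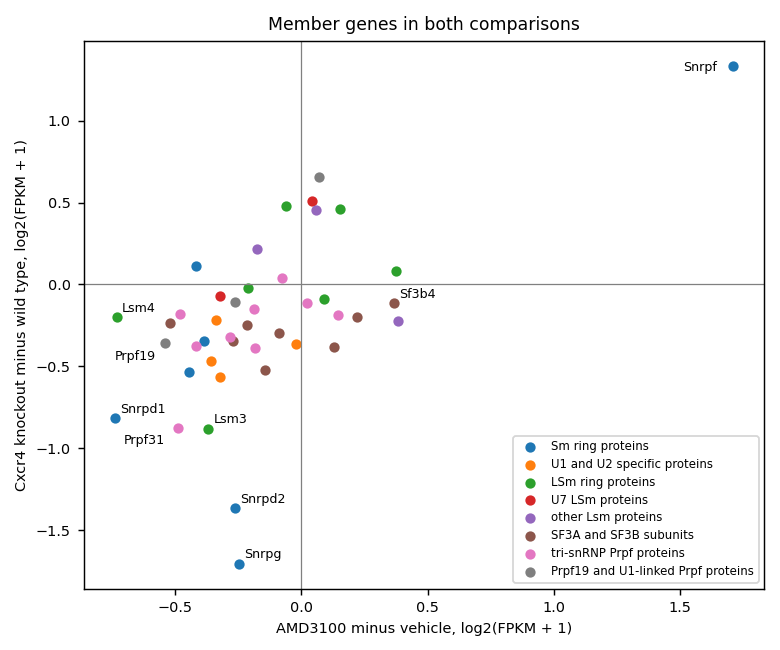
Log2 difference of each member shown with AMD3100 (horizontal) and in Cxcr4 knockout tumours (vertical), coloured by complex. The lower left quadrant holds most of the points, and Snrpf alone lies far to the upper right at 1.71 and 1.34.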

How the data were processed

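Polyadenylated RNA of 12 samples was measured with strand-specific (dUTP) libraries and single reads of 50 bases, as the labels' protocols state. The FPKM values are the authors' own, deposited in 2 tables of 6 samples; CASAVA, TopHat and build mm9 are named in the submitters' processing notes, and the program behind FPKM is not given in the sources used here. Entries joining several symbols (191) were kept as listed. Tests were run on log2(FPKM + 1) with limma 3.58.1 in R 4.3.3 (trended prior variance, two-sided) over every gene averaging 1 FPKM or more, Benjamini-Hochberg adjusted, calling a gene where the adjusted p was under 0.05. Fold differences on this scale are understated for low genes. The ex vivo fit had the replicate number as a block, and the meaning of that number is not stated. Same-numbered samples deviated from their group means together, with correlations of 0.467, 0.579 and 0.619, against -0.473 to 0.0455 for other numbers. Deviations from a group mean cancel out within the group, so the lower values for other numbers are not separate evidence. An exact permutation test of 3 against 3 cannot go below 0.1, so none is given. Named genes were, per role, the 3 smallest p ex vivo, the smallest p in tumours and the highest level, and per list the 2 smallest p ex vivo and 1 in tumours; further members were added. One member enters the counts but is not reported singly or plotted here. Members, lists and rules were chosen with earlier results of these data known. Copies were sought in GENCODE vM21 transcripts (95% identity over 200 bases), and lengths came from the same annotation (loess, span 0.5). Median-of-ratios, trimmed-mean (TMM, unweighted) and quantile scaling, other pseudocounts and filters, no trend, no block, the length correction, leaving out haemoglobin genes, and leaving out each pair or tumour were tried. The fits were tested on simulated data. Absolute depth is unknown.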

Additional observations from a re-analysis of the deposited data

How the results depend on the processing

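The count of 14 called members with AMD3100 stayed between 10 and 15 under 8 alternatives (other pseudocounts, filters at 0.1 and 5 FPKM, median-of-ratios, TMM, quantile scaling, and the length correction). It was 3 with no trend, where 1089 of all 10245 genes passed. It was 0 with no filter, 0 with no replicate block, and 0 to 8 when 1 pair was left out. Quantile scaling lost Lsm3, Snrpa1, Snrpb and Snrpd3, and the filter at 0.1 FPKM lost Prpf6 and Snrpb. Without the filter 0 of 23174 rows passed, and without the block 13 genes passed among all 10245, against 2036 in the paired fit. The cause was not tested for any setting. The member median kept its sign in every setting, between -0.23 and -0.16 ex vivo and between -0.31 and -0.15 in the tumours, where no setting called a member. Some uncalled members changed sign. Quantile scaling gave Lsm11 -0.017, Prpf40b -0.034 and Snrpb2 0.053. The replicate block with length correction gave Lsm11 -0.16, Lsm7 0.036, Prpf38b -0.026, Prpf8 -0.083, Sf3a1 -0.013 and Snrpb2 0.064. Leaving out 1 pair at a time, Lsm11 ran from -0.037 to 0.085, Lsm7 from -0.29 to 0.15, Prpf38b from -0.028 to 0.063, Lsm5 from -0.31 to 0.92 and Snrpb2 from -0.043 to 0.013. Leaving out 1 tumour at a time, Lsm2 ran from -0.52 (without wild type 1) to 1.00; another 11 members changed sign in the tumours in at least 1 setting, among them Prpf18 (3 settings), Lsm10, Lsm6 and Sf3b4 (2 each). Low FPKM and unknown depth limit Lsm5, Lsm7, Lsm11 and Prpf40b.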
